A study of Mus musculus with 40 samples.

Results

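Slitrk1 to Slitrk6 were read as the 6 rows with these symbols among the 24060 genes counted in 40 RNA-seq libraries of mouse striatum, and all 6 passed the filter on low counts in every comparison. SLITRK proteins are single-pass membrane proteins of neurons with leucine-rich repeats outside the cell and a cytosolic tail that resembles that of the Trk neurotrophin receptors. They sit mainly on the postsynaptic side, where they bind LAR-type receptor phosphatases of the facing axon and help to organize synapses. The genes of the LAR type are Ptprd, Ptprf and Ptprs, and which of them each member binds is not treated here. The Slitrk family has been linked to obsessive-compulsive behaviour and tic disorders, and mice without Slitrk5 groom excessively.

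The libraries fall into 10 groups of 4. In RiboTag, an adeno-associated virus (AAV) makes 1 cell class produce the ribosomal protein RPL22 with a haemagglutinin tag, so that its ribosomes and the RNA on them can be immunoprecipitated (IP), and the input is RNA from a share of the same lysate with all striatal cell types. The Control cohort (IP and input) and the Syn cohort (IP and input) were wild-type (WT) C57/BL6NTac mice that received the AAV at 6 weeks of age. The SAPAP3 cohort received it at 4.5 months and gave IP and input of WT mice labelled C57/BL6J and of mice labelled C57/BL6J-Dlgap3 KO, and bulk striatal RNA came from a further 4 WT and 4 SAPAP3 KO libraries, all labelled C57/BL6NTac. The knockout is a germline deletion of Dlgap3, which encodes the postsynaptic scaffold protein SAPAP3, in a line that the methods describe as kept heterozygous. The Syn IP is named for the hSYN1 (neuronal) promoter. The labels do not name the promoter of the Control AAV, which was taken from the methods as the astrocytic GfaABC1D, and no source used here names it for the SAPAP3 cohort. The ages at collection were not given.

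Depth was 23.4 M to 84.1 M counted reads per library. Of 10 astrocyte markers, 10 rose in the Control IP over its input (summed level 3426 to 3634 CPM, read counts scaled to library size, in input and 35783 to 39107 in IP) and 10 rose in the IP of both genotypes of the SAPAP3 cohort, where 8 of 10 oligodendrocyte markers rose too. All 10 ependymal markers rose in these 3 IPs as well. In the Syn IP 10 of 10 neuron markers rose over input and 10 of 10 oligodendrocyte and 10 of 10 microglia markers fell. No marker of any list was at 0 in any library, and how much of the RNA in each IP came from other cell types was not tested. A list of 10 markers of cortical projection neurons, added after the data had been seen, set 4 libraries apart: it summed to 155 CPM in input replicate 1 of the SAPAP3 cohort WT mice against 747 to 907 in the other 3, to 233 CPM in the IP of the same animal against 442 to 493, and to 340 and 298 CPM in WT bulk replicates 2 and 3 against 1049 and 1210 in the other WT bulk libraries. Many of the member fold changes that rest on these libraries are given with and without them. Group levels and family sums are given with all libraries only.

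The 6 genes lie on 3 chromosomes of mm10 (GRCm38.p6, RefSeq annotation). Slitrk1 (chr14:108909988-108914239, minus strand), Slitrk6 (chr14:110747338-110755204, minus strand) and Slitrk5 (chr14:111675115-111683144, plus strand) are spaced 1.83 and 0.92 Mb apart. Slitrk4 (chrX:64264883-64277345, minus strand) and Slitrk2 (chrX:66648951-66661402, plus strand) lie 2.37 Mb apart, and Slitrk3 is alone on chromosome 3 (chr3:73047066-73057953, minus strand). Merged exons span from 4252 bases for Slitrk1, the only member annotated in 1 exon, to 11291 bases for Slitrk4, and the coding sequence, of 2091 to 2949 bases, lies in 1 exon for each member but Slitrk5, where it lies in 2. No other gene of the GENCODE annotation overlaps any of them. No near-identical transcript of another gene was found (identity of at least 0.95 over at least 0.5 of the Slitrk transcript). Partial and unannotated copies were not sought.

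Transcripts of all 6 genes were counted in each of the 40 libraries. Levels below are CPM after TMM scaling of the library sizes over the 40 libraries, and levels of different genes are compared only as FPKM, which divides by the merged exon length. By group mean, Slitrk5 and Slitrk1 were the most abundant members in every group but the Control IP, where Slitrk2 exceeded Slitrk1, and Slitrk6 was the rarest in all 10 groups. Slitrk5, the member whose loss causes grooming in mice, ranged from 11.0 to 24.2 FPKM over the libraries, and Slitrk1, at 7.02 to 29.5 FPKM, spanned the widest range in FPKM. Slitrk3, which is known for inhibitory synapses, ranged from 6.27 to 12.6 FPKM. The X-linked members Slitrk2 and Slitrk4 ranged from 4.58 to 10.3 and from 3.04 to 7.88 FPKM. Slitrk6, known best from the inner ear, stayed between 0.502 and 1.90 FPKM and had 92 to 465 reads per library, against at least 902 for every other member.

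Summed over the 6 genes, the family stood at 42.0 ± 1.49 FPKM in the Control input and 43.1 ± 2.19 in the Control IP (SD, n = 4 here and below). It was higher in the Syn cohort, at 63.2 ± 2.69 in the input and 72.3 ± 4.08 in the IP. In the SAPAP3 cohort the sum was lower in the IP than in the input, with 45.4 ± 2.21 against 60.2 ± 7.88 FPKM in WT mice and 47.1 ± 3.75 against 65.1 ± 1.12 in KO mice. Bulk striatum had 66.3 ± 9.65 FPKM in WT and 66.5 ± 6.27 in KO mice. Slitrk5 gave the largest share in the Control IP, 30.0%, followed by Slitrk2 with 20.5% and Slitrk1 with 19.9%, while in the Syn IP Slitrk1 gave 35.6%, Slitrk5 27.9% and Slitrk2 8.58%. Slitrk6 gave 4.23% in the Control IP and 1.25% in the Syn IP.

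**Figure D1:**
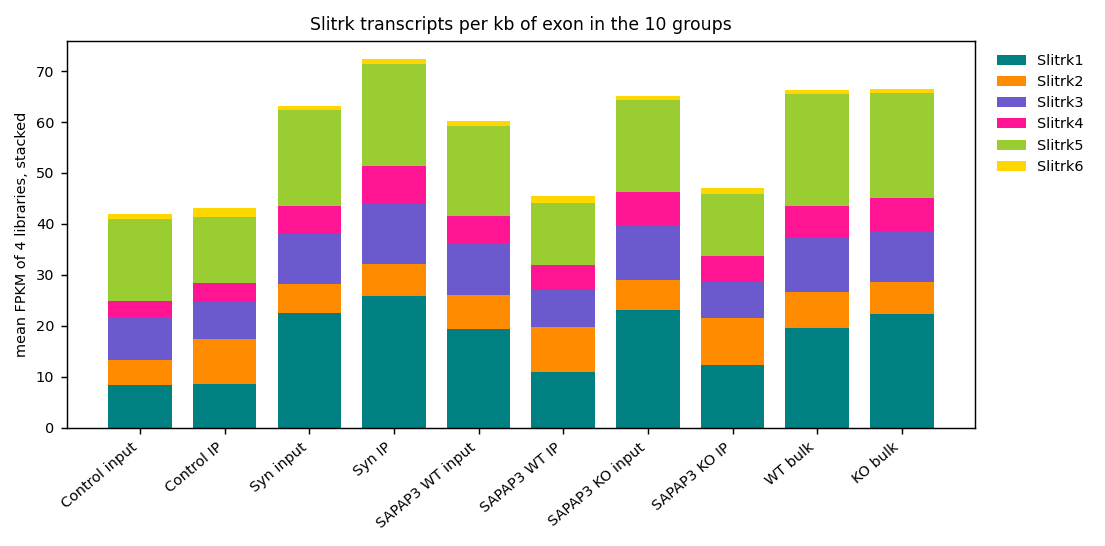
Mean FPKM (CPM after TMM scaling per kilobase of merged exon) of the 6 Slitrk genes, stacked, in the 10 groups (mean of 4 libraries each, no error bars). The Slitrk2 segment is 8.84 FPKM high in the Control IP and 6.19 in the Syn IP, whereas the Slitrk1 segment grows from 8.62 to 25.8 FPKM.

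Ordered by group mean, Slitrk1, Slitrk3 and Slitrk4 were all highest in the Syn IP, Slitrk5 in WT bulk, Slitrk2 in the SAPAP3 cohort KO IP and Slitrk6 in the Control IP. The highest mean was 3.06 times the lowest for Slitrk1 (109.9 CPM in the Syn IP, 35.9 in the Control input), 2.54 times for Slitrk6 and between 1.65 and 2.30 times for the other 4. Neighbours in that order mostly overlapped. For Slitrk1 the libraries of none of the 9 neighbouring pairs of groups were separate, and for Slitrk6 those of 1 were, the Control IP lying above the SAPAP3 cohort WT IP. For Slitrk5 3 neighbouring pairs were separate: Syn IP above Syn input, SAPAP3 cohort WT input above Control input, and Control input above Control IP. Over all 45 pairs of groups, the libraries did not overlap in 35 for Slitrk2 and for Slitrk5, 30 for Slitrk3, 29 for Slitrk4, 22 for Slitrk1 and 14 for Slitrk6. How many pairs are separate for other genes was not computed, so these counts set the members apart from no other gene.

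**Figure D2:**
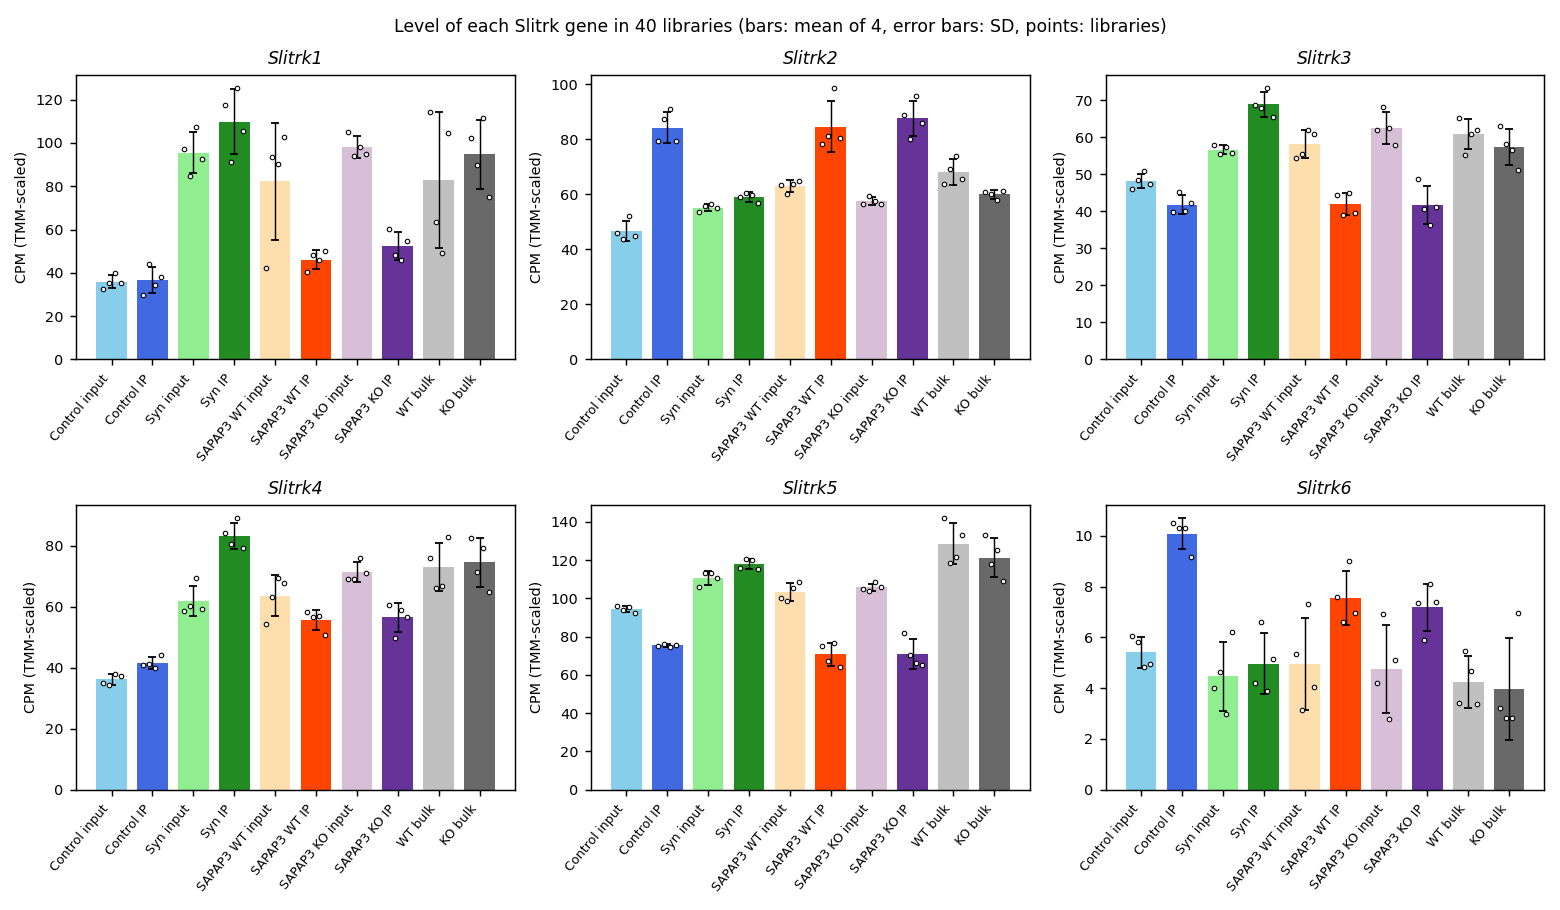
CPM (TMM-scaled) of each Slitrk gene in the 10 groups, with bars at the mean of 4 libraries, error bars of 1 SD and points for the libraries, each panel on its own scale from 0. Slitrk2 and Slitrk6 are high in the IPs of the Control cohort and the SAPAP3 cohort, Slitrk1, Slitrk3 and Slitrk4 are highest in the Syn IP, and the lowest Slitrk1 points of SAPAP3 WT input (42.4 CPM) and SAPAP3 WT IP (40.2) and the lower pair of WT bulk (63.3 and 49.3) belong to the libraries that stand apart in cortical markers.

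Which Slitrk transcripts are on astrocyte ribosomes was asked by comparing the Control IP with its input. Slitrk2 and Slitrk6 were higher in the IP, by 1.71-fold and 1.77-fold, Slitrk5 and Slitrk3 were lower, and Slitrk1 did not pass the test. Slitrk2 stood at 45.8, 43.7, 52.1 and 44.9 CPM in the 4 inputs and at 79.5, 87.2, 90.8 and 79.4 CPM in the IPs of the same animals. Every IP library lay above every input library (log2 fold change, log2(FC), 0.78 ± 0.06, SE; adjusted p = 2.7e-07 by the quasi-likelihood test of edgeR, adjusted over all genes tested by the Benjamini-Hochberg method, which holds for each adjusted p below unless another tool is named). Slitrk6 had 6.06, 5.80, 4.84 and 4.95 CPM in the inputs and 10.5, 10.3, 10.3 and 9.18 in the IPs (log2(FC) = 0.82 ± 0.09, adjusted p = 6.7e-06). Here too the groups were separate, although these levels rest on only 138 to 455 reads per library.

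Slitrk5 fell from 96.1, 94.1, 95.4 and 92.2 CPM in the Control inputs to 74.9, 76.3, 74.7 and 75.9 in the IPs, so the least of the input libraries was above the highest IP library. Its log2(FC) was -0.40 ± 0.03 (adjusted p = 1.8e-07), which left 0.759 times the input level. Slitrk3 fell less, from 46.1, 48.4, 50.7 and 47.4 CPM to 39.9, 45.2, 40.0 and 42.1, again without overlap (log2(FC) = -0.28 ± 0.05, adjusted p = 1.7e-04). Both kept most of their input level. In the same IP 10 of 10 microglia markers and 10 of 10 endothelial markers fell, while of the 10 neuron markers 6 fell and 3 rose. Other lists did not fall in sum. Mural markers summed to 137 to 145 CPM in the inputs and 182 to 189 in the IPs. Oligodendrocyte precursor markers summed to 347 to 366 CPM and 413 to 440. The sums of oligodendrocyte markers overlapped (5110 to 6029 CPM in the inputs, 3614.5 to 6118 in the IPs). Interneuron markers rose with Slitrk2 and Slitrk6: 7 of 10 were higher and 1 lower in the Control IP, with a median log2(FC) of 1.73, and their summed level was 280 to 291 CPM in the inputs and 1286 to 1461 in the IPs. The part of any of these cell types in the Slitrk values was not tested.

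Slitrk1 stood at 32.7, 35.4, 40.1 and 35.4 CPM in the Control inputs and at 29.8, 44.1, 34.5 and 38.1 in the IPs. The groups overlapped, 2 of the 4 animals were higher in the IP, and the log2(FC) of -0.05 had a 95% interval of -0.27 to 0.18 (adjusted p = 0.67). Cortical projection neuron markers summed to 123 to 159 CPM in these inputs and 345 to 588 in the IPs, and 6 of the 10 rose. Their part in the Slitrk1 value was not tested. Slitrk4 was 1.09-fold higher in the IP (35.0, 34.4, 38.1 and 37.3 CPM against 40.8, 41.3, 39.9 and 44.2; log2(FC) = 0.12 ± 0.05, adjusted p = 0.032). That call was lost when input replicate 1, input replicate 2 or IP replicate 4 was left out, and with library sizes taken as total counts the sign turned (log2(FC) = -0.10, adjusted p = 0.087), a scaling that shifts the median of all genes by -0.22 and leaves Slitrk4 at 0.15 relative to that median. In all, 3 members were higher and 2 lower in the Control IP, in a comparison that called 39.2% of the 15476 genes tested higher and 41.2% lower (80.4% in all), and none had a log2(FC) beyond 1 in either direction, as 26.9% of the genes had.

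In the Syn IP, named for the neuronal promoter, Slitrk4 and Slitrk3 were higher than in the input and the other 4 members did not pass the test. Slitrk4 rose from 58.7, 60.1, 69.3 and 59.3 CPM in the inputs to 84.1, 80.6, 88.9 and 79.2 in the IPs (log2(FC) = 0.38 ± 0.06, adjusted p = 2.8e-04). Slitrk3 rose from 57.9, 55.5, 57.3 and 55.6 CPM to 68.7, 67.8, 73.2 and 65.4 (log2(FC) = 0.24 ± 0.04, adjusted p = 5.3e-04). Neither gene's libraries overlapped between IP and input, but the Slitrk3 call was lost with total count scaling (log2(FC) = 0.03, or 0.24 relative to the median of all genes) and with the filter of 5 FPKM (0.05).

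Slitrk1, the member with the highest level in the Syn libraries, stood at 97.3, 84.7, 107 and 92.6 CPM in the inputs and 118, 91.0, 125 and 106 in the IPs. The ranges overlapped but each of the 4 IPs was above the input of the same number, and the log2(FC) of 0.16 ± 0.10 (adjusted p = 0.19) passed in the fit with the replicate number as a block (log2(FC) = 0.15, adjusted p = 0.0010). Leaving out Syn IP replicate 2 also gave a call (log2(FC) = 0.24, adjusted p = 0.032). Slitrk2 stood at 53.5 to 56.4 CPM in the inputs and 56.7 to 60.5 in the IPs, and Slitrk5 at 106 to 113 CPM and 116 to 121, in both cases without overlap but with a log2(FC) of 0.05 and 0.04 that did not pass (adjusted p = 0.24 and 0.29). With total count scaling, which shifts the median of all genes by -0.21, both turned to called decreases (log2(FC) = -0.16 for each, adjusted p = 0.0028 and 0.0020), and with the filter of 5 FPKM to -0.14 for each (adjusted p = 0.0060 and 0.0046). Relative to that median they stayed at 0.05 each. Slitrk6, at 2.99 to 6.20 CPM in the inputs and 3.91 to 6.61 in the IPs, overlapped (log2(FC) = 0.11, 95% interval -0.40 to 0.61, adjusted p = 0.69). Thus 2 of 6 members were called, both higher, where 71.3% of 16198 genes were called and 35.5% were called higher. Interneuron markers were higher here too (8 of 10, summed 412 to 429 CPM in input and 640 to 703 in IP).

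**Figure D3:**
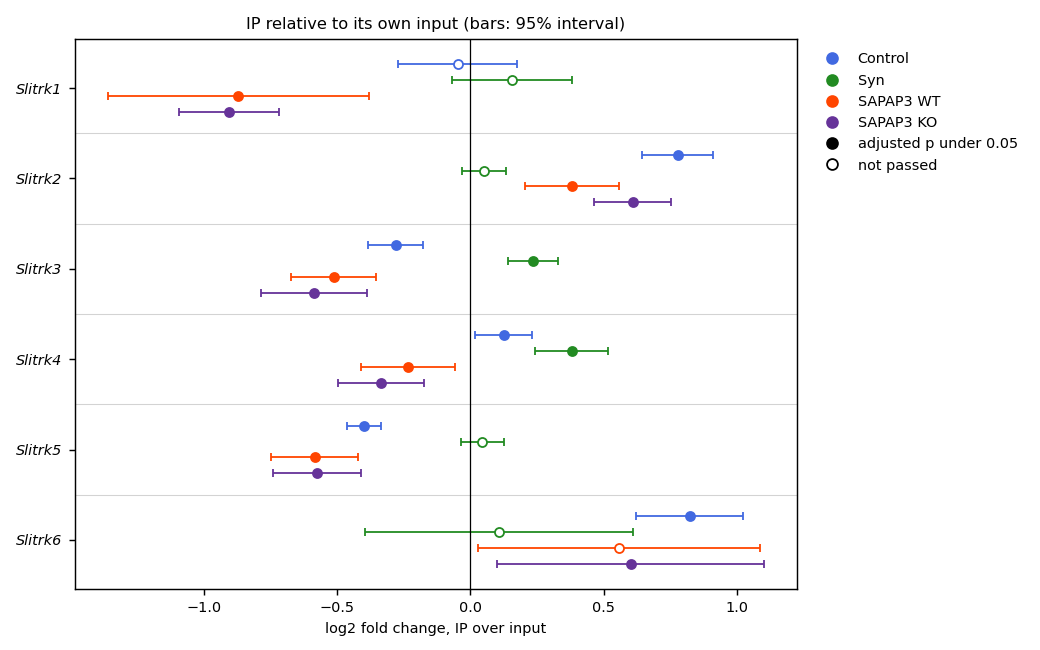
The log2(FC) of IP over its own input for the 6 Slitrk genes in 4 cohorts (points) with 95% intervals (bars), filled where the adjusted p was under 0.05 with the replicate block left out. Slitrk2 and Slitrk6 lie to the right of 0 in the Control cohort and in both genotypes of the SAPAP3 cohort, Slitrk3 and Slitrk5 to the left of 0 there, and with total count scaling Slitrk4 of the Control cohort and Slitrk1, Slitrk2, Slitrk5 and Slitrk6 of the Syn cohort change sign.

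The enrichment of 5 members differed between the cohorts when each IP was set against its own input in 1 model with an interaction term. Slitrk2 (log2 difference, Syn minus Control, -0.73 ± 0.07, adjusted p = 1.1e-07) and Slitrk6 (-0.72 ± 0.26, adjusted p = 0.021) were less enriched in the Syn IP. Slitrk3 (0.51 ± 0.06, adjusted p = 1.3e-06), Slitrk5 (0.44 ± 0.04, adjusted p = 6.4e-08) and Slitrk4 (0.25 ± 0.08, adjusted p = 0.011) were more enriched there. Slitrk1 had a difference of 0.20 ± 0.16 (adjusted p = 0.27), which passed with the replicate block (0.20, adjusted p = 0.029). With 3 members higher and 2 lower, 5 of 6 is near the share of all genes, since the model called 70.1% of 16371 genes, 35.8% higher and 34.3% lower. The Slitrk6 difference was lost without Syn input replicate 4, the highest of the Syn inputs at 6.20 CPM (-0.52, adjusted p = 0.057), and Slitrk4 and Slitrk6 were lost when all 40 libraries shared 1 fit (adjusted p = 0.12 and 0.066).

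Set directly against each other, the libraries of the Syn IP and the Control IP did not overlap for any of the 6 genes. The share of all genes without overlap was not computed. Slitrk1 was 2.93-fold higher in the Syn IP (log2(FC) = 1.55 ± 0.13, adjusted p = 1.3e-06), Slitrk4 1.95-fold, Slitrk3 1.61-fold and Slitrk5 1.52-fold. Slitrk2, at 56.7 to 60.5 CPM against 79.4 to 90.8, was lower at 0.683 times the Control IP (log2(FC) = -0.55 ± 0.05, adjusted p = 2.8e-06). Slitrk6 was at 0.480 times (log2(FC) = -1.06 ± 0.15, adjusted p = 8.0e-05). All 6 were called, 4 higher and 2 lower, where 79.6% of 15468 genes were, 40.3% higher and 39.4% lower, and 2 of them were past a log2(FC) of 1 where 27.8% were.

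The inputs of these cohorts differed as well, and for Slitrk2 in the opposite direction to the IPs. Slitrk1 was already 2.60-fold higher in the Syn input than in the Control input (log2(FC) = 1.38 ± 0.08, adjusted p = 9.5e-08), and the cortical markers summed to 822 to 1128 CPM in the Syn inputs, 5 or more times the Control inputs. Slitrk4 was 1.67-fold higher (adjusted p = 2.2e-06), and Slitrk2, Slitrk3 and Slitrk5 were 1.14-fold to 1.15-fold higher without overlap. Slitrk6 did not pass (log2(FC) = -0.32, adjusted p = 0.17), but did without Syn input replicate 4 (-0.51, adjusted p = 0.018). These 5 of 6 calls, all higher, compare with 53.8% of 15944 genes, 26.4% of them higher. Cell type cannot be told apart from cohort and sex here. By Xist all libraries of the Syn cohort were from female mice and none of the Control cohort were, and Slitrk2 and Slitrk4 are X-linked. Gapdh had 608 to 995 CPM of total counts in the Control cohort but 1.91 to 5.94 in all other libraries, and whether the cohorts were counted in the same way was not tested.

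In the WT mice of the SAPAP3 cohort Slitrk1, Slitrk5, Slitrk3 and Slitrk4 were lower in the IP than in the input and Slitrk2 was higher. Slitrk1 had 42.4, 93.7, 90.2 and 103 CPM in the inputs and 40.2, 48.4, 45.8 and 50.2 in the IPs. Each IP was below the input of its animal, and the ranges overlapped only through animal 1, whose input and IP both stand apart in cortical markers (log2(FC) = -0.87 ± 0.22, adjusted p = 0.0058, and -0.99, adjusted p = 1.1e-05, without that animal's libraries). Slitrk2 rose from 63.5, 60.0, 63.8 and 64.7 CPM to 78.2, 81.0, 98.6 and 80.6, without overlap (log2(FC) = 0.38 ± 0.08, adjusted p = 0.0019). Slitrk5 fell from 98.5 to 109 CPM in the inputs to 64.3 to 76.7 in the IPs (log2(FC) = -0.58 ± 0.07, adjusted p = 7.7e-05), and Slitrk3 from 54.3 to 61.9 CPM to 39.1 to 44.9 (log2(FC) = -0.51 ± 0.07, adjusted p = 1.6e-04). Without animal 1 the log2(FC) was 0.46 for Slitrk2 (adjusted p = 0.00235), -0.59 for Slitrk5 (adjusted p = 3.9e-04) and -0.53 for Slitrk3 (adjusted p = 5.5e-04).

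Slitrk4 was lower by a log2(FC) of -0.24 ± 0.08 with overlapping ranges (54.3 to 69.5 CPM in input, 50.7 to 58.3 in IP; adjusted p = 0.023), and 1 of the 4 animals, the one that stands apart, was higher in the IP. The Slitrk4 call was lost without input replicate 3, input replicate 4 or IP replicate 4, and held without animal 1 (-0.29, adjusted p = 0.0075). Slitrk6 was higher in the IP of each of the 4 animals, at 5.34, 3.14, 7.31 and 4.05 CPM in input and 7.60, 6.62, 9.01 and 6.94 in IP. Its log2(FC) of 0.56 ± 0.24 missed the threshold (adjusted p = 0.060) and passed with the replicate block (0.60, adjusted p = 0.0035). Slitrk6 also passed with limma-voom (0.61, limma-voom adjusted p = 0.038) and DESeq2 (0.57, DESeq2 adjusted p = 0.0305). So it did with no filter (0.62, adjusted p = 0.0365) and with all 40 libraries in 1 fit (0.59, adjusted p = 0.044). Without animal 1 it did not pass (0.63, adjusted p = 0.093). Of 6 members, 1 was called higher and 4 lower, and 67.3% of 15587 genes were called, 32.7% higher and 34.6% lower. Of the interneuron markers, 6 were higher and 1 lower (summed 291 to 442 CPM in input and 811 to 923 in IP).

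The KO mice of the SAPAP3 cohort gave the same signs for all 6 members. Slitrk1 fell from 105, 93.8, 98.3 and 95.0 CPM in the inputs to 60.1, 48.5, 46.0 and 54.7 in the IPs, now without overlap (log2(FC) = -0.91 ± 0.09, adjusted p = 3.8e-06). Slitrk2 rose from 56.3, 59.3, 57.6 and 56.4 CPM to 88.7, 80.0, 95.5 and 85.9 (log2(FC) = 0.61 ± 0.07, adjusted p = 1.0e-05). Slitrk5 (log2(FC) = -0.58 ± 0.07), Slitrk3 (-0.59 ± 0.09) and Slitrk4 (-0.34 ± 0.07) fell, each without overlap. Slitrk6 was called here (log2(FC) = 0.60 ± 0.23, adjusted p = 0.033), with 4.21, 6.90, 2.78 and 5.09 CPM in input and 7.34, 5.89, 8.09 and 7.38 in IP, so that animal 2 went the other way, and the call was lost in 6 of 8 fits that left out 1 library (replicates 1, 3 or 4 of either kind). The Slitrk6 call was also lost with total count scaling (log2(FC) = 0.40, or 0.60 relative to the median of all genes, adjusted p = 0.14). All 6 members were called in the main fit, 2 higher and 4 lower, where 71.9% of 15583 genes were called, 36.1% higher and 35.9% lower. Of the interneuron markers, 6 were higher and 3 lower (summed 432 to 490 CPM in input and 804 to 879 in IP), and their part in the values of either genotype was not tested.

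Between the WT cohorts, the fold of IP over input was lower in the SAPAP3 cohort than in the Control cohort for Slitrk1 (log2 difference -0.80 ± 0.26, adjusted p = 0.041), Slitrk2 (-0.38 ± 0.10, adjusted p = 0.018) and Slitrk4 (-0.34 ± 0.09, adjusted p = 0.017). The Slitrk1 difference was lost in 11 of 16 fits with 1 library left out, and was -0.95 (adjusted p = 2.3e-04) without both libraries of WT animal 1. With limma-voom it was lost as well (-0.73, limma-voom adjusted p = 0.083). Slitrk3 missed the threshold (-0.21, adjusted p = 0.084) and passed with the replicate block (-0.21, adjusted p = 0.045) and without animal 1 (-0.26, adjusted p = 0.038). Thus 3 of 6 members were called, all lower, where 20.5% of 16032 genes were, 11.3% lower. Against the Syn cohort, Slitrk1 (-1.02 ± 0.26), Slitrk3 (-0.74 ± 0.08), Slitrk5 (-0.62 ± 0.08) and Slitrk4 (-0.61 ± 0.10) were less enriched in the SAPAP3 cohort WT IP and Slitrk2 (0.34 ± 0.09) more, and 60.8% of 16409 genes were called, 29.3% higher and 31.5% lower. Without animal 1 the fits called 4 and 5 members. The SAPAP3 cohort differs from both other cohorts in labelled strain and age at injection, the cells it tagged are named by no source used here, and these cannot be told apart.

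Whether loss of SAPAP3 changes the Slitrk transcripts was asked in input, IP and bulk. The targeted gene was lower in each knockout library than in any WT library. Dlgap3 had 172 ± 16.6 CPM in KO inputs against 392 ± 47.8 in WT inputs, 72.1 ± 17.8 against 189.8 ± 26.3 in the IPs, and 148 ± 9.07 against 327 ± 67.7 in bulk, so 38.0% to 45.3% of the WT mean was still counted (log2(FC) = -1.19, -1.40 and -1.14, adjusted p = 0.0070, 0.028 and 0.32). Counts are given per gene, and the exons these reads came from were not examined. None of the 6 Slitrk genes passed in any of the 3, nor by DESeq2, and few genes did in all: 0.00641% of 15591 genes in the inputs, 0.0263% of 15198 in the IPs and 0% of 16020 in bulk, where 869, 399 and 792 genes had an unadjusted p under 0.05 and DESeq2 called 8, 8 and 17.

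Slitrk2 was the member nearest to a difference. It had 63.5, 60.0, 63.8 and 64.7 CPM in WT inputs and 56.3, 59.3, 57.6 and 56.4 in KO inputs, and 63.6, 69.2, 74.0 and 65.6 CPM in WT bulk against 61.0, 60.0, 57.8 and 61.0 in KO bulk. All KO libraries lay below all WT libraries in both, by a log2(FC) of -0.14 ± 0.05 in input and -0.18 ± 0.06 in bulk (unadjusted p = 0.019 and 0.011, adjusted p = 0.73 and 0.98). The highest values of WT bulk were those of replicates 2 and 3, which stand apart in cortical markers, and without them the bulk value was -0.10 (adjusted p = 0.41). Replicate 3 was also the only bulk library read as from a female. With sex as a covariate the values were -0.14 in input (adjusted p = 0.79) and -0.14 in bulk (adjusted p = 0.998). The share of all genes without overlap between genotypes was not computed. Its IPs overlapped, with 78.2 to 98.6 CPM in WT and 80.0 to 95.5 in KO mice (log2(FC) = 0.05, 95% interval -0.14 to 0.24).

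Slitrk1 was higher on average in KO mice in all 3 kinds of library, but with wide intervals and overlapping libraries. The log2(FC) was 0.25 in input (95% interval -0.23 to 0.73), 0.18 in IP (-0.04 to 0.40) and 0.19 in bulk (-0.38 to 0.76). WT bulk had 114, 63.3, 49.3 and 105 CPM and KO bulk 102, 89.9, 111 and 75.1, and the low WT values were those of replicates 2 and 3, which stand apart in cortical markers. Without these 2 libraries the bulk value was -0.21, without the input of WT animal 1 the input value was 0.04, and with the cortical markers as a covariate the 3 values were -0.01, 0.08 and 0.05. Slitrk3, Slitrk4 and Slitrk5 had log2(FC) values between -0.09 and 0.16 in the 3 comparisons, with intervals within -0.26 and 0.33. Without WT bulk replicates 2 and 3 their bulk values were -0.15, -0.09 and -0.18 (adjusted p = 0.438, 0.715 and 0.373). For Slitrk6 the intervals were wide, the widest from -0.80 to 0.62 in bulk, where KO replicate 4 had 6.94 CPM and the other 3 KO libraries 2.83 to 3.24. No member passed the test for a change by genotype in the fold of IP over input either. The log2 differences lay between -0.14 and 0.19 (adjusted p = 1.0 for each). Their 95% intervals lay within -0.74 and 0.75, so changes inside these bounds were not excluded. This model called 0% of 16059 genes, 203 of them with an unadjusted p under 0.05 and 1 called by DESeq2.

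**Figure D4:**
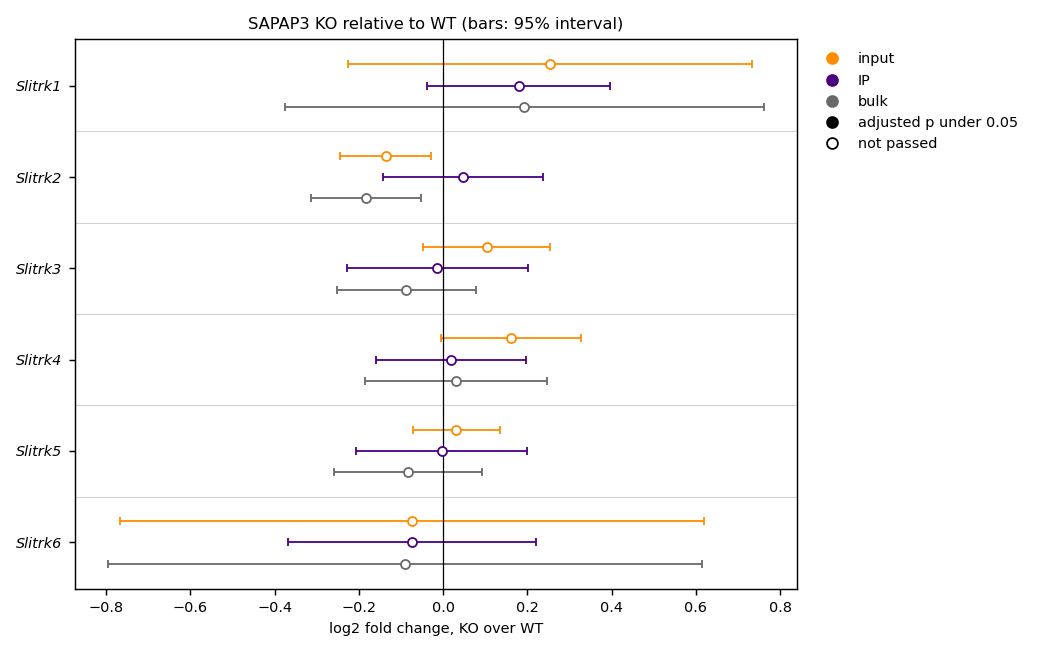
The log2(FC) of SAPAP3 KO over WT for the 6 Slitrk genes in input, IP and bulk striatum (points, 4 libraries against 4) with 95% intervals (bars), all open because no adjusted p was under 0.05. The intervals of Slitrk2 in input (-0.25 to -0.03) and bulk (-0.31 to -0.05) lie below 0, and those of Slitrk1 and Slitrk6 are the widest.

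Slitrk1 varied with the cortical markers within groups as well. Taken as deviations from the group mean on a log2 scale, Slitrk1 and the summed markers had a Pearson r of 0.95 over the 40 libraries (Spearman rho 0.91). The r was 0.92 without the 2 libraries farthest from the median of the markers and 0.86 without the 4 libraries that stand apart. Among the other members it was 0.58 for Slitrk4, 0.41 for Slitrk3, 0.39 for Slitrk5, -0.17 for Slitrk2 and -0.47 for Slitrk6. IP and input of an animal share tissue and are not independent, so these are descriptions. In bulk and input RNA, fewer cells of a type and less RNA per cell cannot be told apart.

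**Figure D5:**
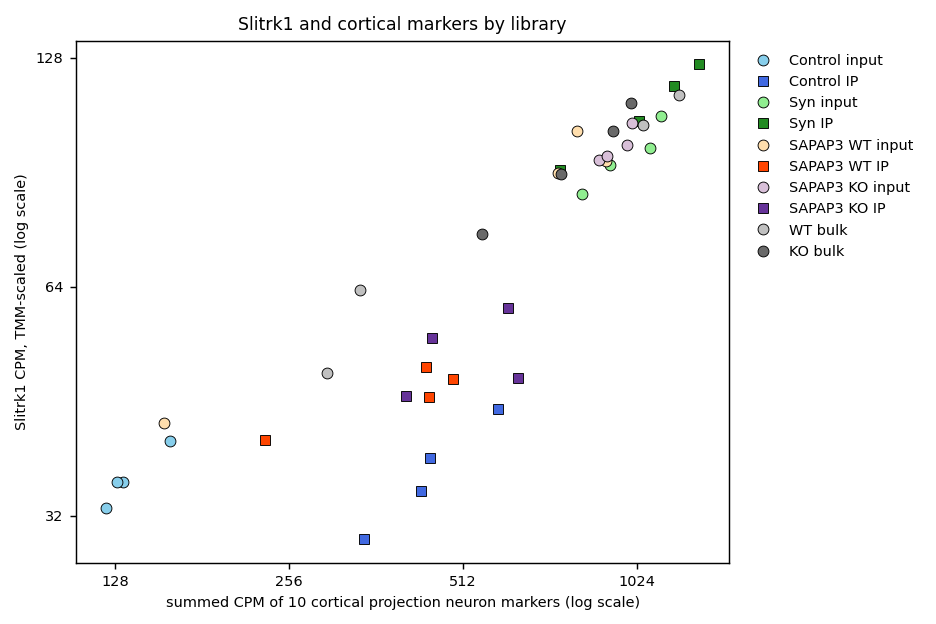
Slitrk1 CPM against the summed CPM of 10 cortical projection neuron markers in the 40 libraries (both axes on a log scale, circles for input and bulk, squares for IP, coloured by group). Within groups the points rise together, SAPAP3 cohort WT input replicate 1 (155 and 42.4 CPM) lies beside the Control inputs, and the Control IPs lie at 345 to 588 marker CPM with only 29.8 to 44.1 CPM of Slitrk1.

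The 3 LAR-type phosphatase genes were all higher in the Control IP over input, with a log2(FC) of 1.17 ± 0.03 for Ptprf, 0.91 ± 0.04 for Ptprs and 0.59 ± 0.05 for Ptprd (median 0.91, against -0.02 over all genes tested). In the Syn IP Ptprs (0.38) and Ptprf (0.11) were higher and Ptprd (-0.49 ± 0.08) lower. The IPs of the SAPAP3 cohort had Ptprf higher by 1.06 in WT and 1.14 in KO mice, with Ptprs higher in both and Ptprd called only in the KO mice (0.33 in each). Per length, Ptprf stood at 41.4 FPKM in the Control IP and 21.8 in the Syn IP, and Ptprs at 48.6 and 45.9.

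Over all genes tested, 39.2% were called higher and 41.2% lower in the Control IP, and 35.5% higher and 35.9% lower in the Syn IP, and the counts below are to be read against these shares. The liprin family includes proteins that bind the phosphatases inside the axon. Of its 6 genes, 1 rose and 3 fell in the Control IP (from Ppfibp2 at 0.54 to Ppfia4 at -0.78) and 1 rose and 4 fell in the Syn IP (from Ppfia3 at 0.22 to Ppfibp2 at -1.05). Of 6 genes for other postsynaptic ligands of the same phosphatases, 5 fell in the Control IP, most of all Lrfn4 (-0.78), and Il1rap rose (0.56), whereas in the Syn IP 3 rose, with Lrfn4 highest (0.33), and 2 fell, with Il1rap lowest (-0.87). Of 27 genes for other leucine-rich repeat membrane proteins of neurons, 6 rose and 16 fell in the Control IP (from Amigo2 at 1.18 to Lingo3 at -1.09) and 13 rose and 4 fell in the Syn IP (from Lingo3 at 0.78 to Amigo3 at -0.82). No member of these lists passed in the comparisons of genotypes.

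The genes most like each member over the 40 libraries, by Pearson r of log2(CPM + 1) among 14027 genes, were Car10, Mef2c and Pak1 for Slitrk1 (r = 0.98 each), Ppp3cb, Lphn2 and Smap2 for Slitrk3 (0.97 to 0.98), Map2, Dennd5b and Fam169a for Slitrk4 (0.96 to 0.98) and Rab11fip2, Abi2 and Celf4 for Slitrk5 (0.98 to 0.99). For Slitrk2 they were Stag2, Arhgap5 and Zbtb41 (0.90 to 0.92), and for Slitrk6 they were Zic1, Fam19a4 and Amotl1 (0.82 to 0.88). Between members, Slitrk3 and Slitrk5 were the most alike (r = 0.94), followed by Slitrk1 and Slitrk4 (0.91). Slitrk2 and Slitrk6 ran against Slitrk1 (-0.44 and -0.73). The libraries share groups and cohorts, which these values include.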

How the data were processed

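The authors deposited whole-number counts of reads per gene symbol, not normalized, in 40 columns, all used. The submitters' processing notes name STAR, HTSeq and mm10, while versions, annotation and strand setting are not given in the sources used here, and the labels and the methods name different library kits and sequencers. By the labels' identifiers, the libraries of a group are from separate animals, IP and input of the Control and SAPAP3 cohorts share animals, and 1 identifier appears in both bulk genotypes. Syn IP and input carry different identifiers and were paired by title number.

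Counts were tested with edgeR 4.0.16 in R 4.3.3 (filterByExpr, TMM, glmQLFTest), each fit holding just the groups it compares, and a gene passed at an adjusted p under 0.05. FPKM used merged RefSeq exons, matched to 99.3% of symbols. The main fits did not use the pairing of IP and input, which entered only the alternative with the replicate block. Paired IP and input libraries had correlations of deviations from group means of 0.247 to 0.795 over 11753 genes with at least 5 CPM. Alternatives were limma-voom 3.58.1, DESeq2 1.42.0, total count scaling, no filter, a filter of 5 FPKM in 4 libraries, all libraries in 1 fit, sex, the replicate block and leaving out each library. The scripts were tested on simulated data. Near-identical copies were sought with minimap2 2.31. Sex was read from Xist above 10 CPM.

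The members and lists were chosen with earlier results of these data known. The genes named are the 6 members, Dlgap3, the 3 phosphatases, the largest called rise and fall of each partner list in both WT RiboTag cohorts (1 list is not reported here), and the 3 genes most like each member. Xist and Gapdh were named after their values were seen.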

Additional observations from a re-analysis of the deposited data

Results flagged for a closer look

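In 66 sets of 4 libraries, 1 library lay far from the other 3 in 4 sets, by Dixon's criterion on the gap over the range, which chance meets in about 1 of 20 sets. These were Slitrk2 in SAPAP3 cohort WT IP replicate 3 (98.6 CPM, the others 78.2 to 81.0), Slitrk4 in Syn input replicate 3 (69.3 CPM, the others 58.7 to 60.1), Slitrk6 in Control IP replicate 4 (9.18 CPM, the others 10.3 to 10.5) and Slitrk6 in KO bulk replicate 4 (6.94 CPM, the others 2.83 to 3.24).

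The fold of IP over input differed between cohorts by the interaction test for 13 pairs of member and cohorts. Syn minus Control, the log2 differences were -0.73 for Slitrk2, 0.51 for Slitrk3, 0.25 for Slitrk4, 0.44 for Slitrk5 and -0.72 for Slitrk6. SAPAP3 cohort WT minus Control, they were -0.80 for Slitrk1, -0.38 for Slitrk2 and -0.34 for Slitrk4. SAPAP3 cohort WT minus Syn, they were -1.02 for Slitrk1, 0.34 for Slitrk2, -0.74 for Slitrk3, -0.61 for Slitrk4 and -0.62 for Slitrk5. The contrasts share libraries. The Syn and Control cohorts differ in sex as read from Xist, and the SAPAP3 cohort differs from both in labelled strain and age at injection.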

How the results depend on the processing

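Of 645 member fold changes under other settings, 601 kept their direction and call, 21 kept only their direction and 23 changed sign. With total count scaling the sign turned for Slitrk4 in Control IP over input (-0.0973) and for Slitrk1, Slitrk2, Slitrk5 and Slitrk6 in Syn IP over input (-0.0521, -0.155, -0.160 and -0.0966), and with the filter of 5 FPKM for Slitrk1, Slitrk2 and Slitrk5 there (-0.0306, -0.135 and -0.140). The other changes of sign were of values called in neither fit: Slitrk1 in Control IP over input with all 40 libraries in 1 fit (0.0216); with the cortical covariate Slitrk1 (-0.0103) and Slitrk6 (0.0317) by genotype in input, Slitrk5 in IP (0.0202) and Slitrk4 (-0.0297) and Slitrk6 (0.0711) in bulk. In bulk they were also Slitrk4 with sex as a covariate (-0.0077), and Slitrk1, Slitrk4 and Slitrk6 without WT replicates 2 and 3 (-0.205, -0.0872 and 0.233). In the genotype interaction they were Slitrk6 with no filter (-0.0025) and with the replicate block (-0.0018), and Slitrk1, Slitrk5 and Slitrk6 without WT animal 1 (0.0829, 0.0112 and -0.0268). With the filter of 5 FPKM 4 members were tested in the Control IP and 3 passed, where 7453 of 8792 genes did. In the Syn against Control interaction 5 were tested with it and 3 passed, where 7177 of 9196 genes did. With all 40 libraries in 1 fit 3 of 6 members passed in that interaction. DESeq2 called 5 in the SAPAP3 cohort WT against Control interaction. Dlgap3 passed in bulk by DESeq2 (log2(FC) = -1.15, DESeq2 adjusted p = 3.2e-10) and with all libraries in 1 fit (-1.14, adjusted p = 3.6e-06), and missed in the IPs with the cortical covariate, an alternative added after the data were seen (-1.37, adjusted p = 0.20). The cause of these changes was not tested.

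With 1 library left out, 745 of 816 member fold changes kept their direction and call, 29 kept only their direction, and 42 changed sign, all called in neither fit. These lie in the ranges of Slitrk1 in Control IP over input (-0.134 to 0.0494), Slitrk6 in Syn IP over input (-0.054 to 0.308), Slitrk6 by genotype in input (-0.322 to 0.183), Slitrk3, Slitrk4, Slitrk5 and Slitrk6 in IP (-0.0997 to 0.0459, -0.0255 to 0.0776, -0.0827 to 0.0351 and -0.138 to 0.0173), Slitrk4 and Slitrk6 in bulk (-0.0208 to 0.0955 and -0.508 to 0.0604), Slitrk6 in the WT against Control interaction (-0.413 to 0.0051), and Slitrk1, Slitrk5 and Slitrk6 in the genotype interaction (-0.177 to 0.140, -0.108 to 0.0095 and -0.229 to 0.258). Members passing ranged from 4 to 5 in the Control IP, 2 to 3 in the Syn IP, 4 to 5 in the SAPAP3 cohort WT IP, 5 to 6 in the KO IP, 6 to 6 in Syn IP against Control IP, 5 to 6 in the inputs, 4 to 5 in the Syn against Control interaction, 2 to 5 in the WT against Control one (5 without WT IP replicate 3), 5 to 5 in the WT against Syn one, and 0 to 0 for genotype. Dlgap3 ranged from -1.25 to -1.10 in input (missed in 3 of 8 fits), from -1.57 to -1.29 in IP (missed in 7 of 8) and from -1.28 to -1.07 in bulk (passed without WT bulk replicate 4).

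The FPKM filter tests fewer genes and called fewer in Control IP (12448 of 15476 to 7453 of 8792) and Syn IP (11557 of 16198 to 5833 of 8408). The same held for SAPAP3 cohort WT IP (10496 of 15587 to 6050 of 8673), KO IP (11211 of 15583 to 6607 of 8697) and KO against WT IP (4 of 15198 to 2 of 8161). Syn against Control went from 12318 of 15468 to 7160 of 8421 in IP and from 8585 of 15944 to 5644 of 8705 in input. The Syn against Control interaction went from 11469 of 16371 to 7177 of 9196, and the WT against Syn one from 9979 of 16409 to 6009 of 9081. As a share of the genes tested, the calls rose in most of these. By genotype, all libraries in 1 fit called 8 in input, 18 in bulk and 1 in the interaction, the cortical covariate 2 in IP, and bulk without WT replicates 2 and 3 called 5. Fits that left out 1 library called 0 to 1 in input, 0 to 3 in IP and 0 to 1 in bulk.

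The replicate block raised the calls in the WT against Control interaction from 3280 to 4980 and changed no member call beyond those printed with it. On total counts 29 of 60 group levels moved by more than 1 SD. Sex as a covariate called no member by genotype; in bulk only WT replicate 3 was read as female. Counts of 92 to 465 reads limit Slitrk6, and 4 libraries per group and unlike cohorts limit the rest.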
